A study of Mus musculus with 48 samples.

Results

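The genes followed here build and break down glycogen in the liver, and their expression was compared across 4 dose groups of mice given dichloroacetic acid (DCA). They are Gys2, Pygl, Gbe1, Ugp2, Ppp1r3b, Ppp1r3c, Ppp1r3g, Gsk3b and Phka2. They were picked by name as the core of hepatic glycogen metabolism, and every row carrying 1 of the 9 symbols was taken from the table of frozen liver (FROZ) and from that of liver fixed in formalin and embedded in paraffin (FFPE). Of the 9, 8 were listed among the 11275 genes of FROZ and 7 among the 6673 genes of FFPE. Ppp1r3g was listed in neither table, and Phka2 was not listed in FFPE. The animals were 24 male B6C3F1 mice, 4 weeks old, 6 per dose group, and each mouse gave a FROZ and an FFPE library, which makes 48 libraries. Vehicle controls received drinking water with 0 g/L of DCA, and the treated groups received 1.0, 2.0 or 3.5 g/L for 6 days, which corresponded to 198, 313 and 427 mg/kg-d. The labels give mixed lobes for FROZ, which the study's methods name as left lateral caudate and right medial, and FFPE material came from the left lateral and right medial lobes. By the study's methods, FROZ libraries were made from isolated RNA and FFPE libraries from a lysate of sections. Neither a difference in lobe nor this difference in input can be told apart from preservation. All 4 groups share this strain, sex, age and route, and no group carried a genetic change.

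Liver cells store glucose as glycogen, a branched polymer. UDP-glucose pyrophosphorylase (Ugp2) makes the activated glucose donor, liver glycogen synthase (Gys2) lengthens the chains, and the branching enzyme (Gbe1) adds the branch points. Liver glycogen phosphorylase (Pygl) releases glucose 1-phosphate from the chains and is switched on by phosphorylase kinase, of which Phka2 is the liver alpha subunit. Glycogen synthase kinase 3 beta (Gsk3b) phosphorylates and inactivates the synthase. The Ppp1r3 proteins are targeting subunits that carry protein phosphatase 1 to glycogen, where it activates the synthase and inactivates the phosphorylase. DCA inhibits pyruvate dehydrogenase kinase and is known for loading rodent liver with glycogen, but glycogen itself was not measured in these libraries.

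Expression was measured by TempO-Seq, in which a pair of detector oligos is ligated on each target transcript and the ligated product is sequenced. Values are log2(CPM + 1), where CPM is the reads of a gene per 1000000 reads over the genes listed in a table. The step between low values gave 6.69 to 9.85 M reads on listed genes per FROZ library and 1.83 to 6.01 M reads per FFPE library. A probe reads a short stretch of 1 transcript, so the level of 1 gene was compared between animals, and a higher value of 1 gene than of another was not read as more transcript. All 8 hepatocyte markers were listed in FROZ and 7 of 8 in FFPE. In bulk tissue a smaller number of cells of a type and less RNA per cell cannot be told apart. The FROZ library of 1 vehicle mouse held 1780 CPM of the skeletal muscle gene Acta1, against a vehicle median of 8.72 CPM and 2.39 to 7.60 CPM in the treated FROZ libraries. Leaving that library out left the same 4 members called at 313 and at 427 mg/kg-d. In FFPE, 3 libraries had over 16% of genes at 0, a pair at 198 and 1 at 313 mg/kg-d.

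In GRCm38 coordinates, Gys2 lies on the minus strand at chr6:142422613-142473109 and Pygl on the minus strand at chr12:70190811-70231488. Gbe1 and Gsk3b are both on the plus strand of chromosome 16, at chr16:70313949-70569716 and chr16:38089001-38246084. Ugp2 is found at chr11:21321138-21371201 on the minus strand, Ppp1r3b at chr8:35375739-35388139 on the plus strand, Ppp1r3c at chr19:36731731-36736653 on the minus strand and Phka2 at chrX:160502166-160598878 on the plus strand. None of these genes overlaps another protein-coding gene in GENCODE. Of all 50-base windows in their transcripts, at most 0.526% (Pygl) also occur in a transcript of another gene.

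The promoters of the 2 members with the lowest adjusted p-values, Gbe1 and Gsk3b, and of Ppp1r3c, the member with the widest spread between vehicle mice in FROZ, are shown from RefSeq (GRCm38.p6), 5′ to 3′ on the strand of the gene and ending at the base before transcription. RefSeq gave a promoter for 7 of the 9 members, and none was matched for Gys2 and Ppp1r3b. Capitals mark matches on either strand to CACGTG (E-box), TGACGTCA (cyclic AMP response element), AGGTCA (nuclear receptor half-site), CCAAT or GGGCGG (GC box), and no 2 matches overlap.
Gbe1, chr16:70313699-70313948, plus strand: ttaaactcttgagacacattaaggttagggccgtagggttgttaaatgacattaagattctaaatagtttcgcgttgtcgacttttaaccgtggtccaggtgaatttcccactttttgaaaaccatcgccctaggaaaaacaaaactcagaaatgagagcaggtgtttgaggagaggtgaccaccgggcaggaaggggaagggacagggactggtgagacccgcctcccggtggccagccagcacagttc
Gsk3b, chr16:38088751-38089000, plus strand: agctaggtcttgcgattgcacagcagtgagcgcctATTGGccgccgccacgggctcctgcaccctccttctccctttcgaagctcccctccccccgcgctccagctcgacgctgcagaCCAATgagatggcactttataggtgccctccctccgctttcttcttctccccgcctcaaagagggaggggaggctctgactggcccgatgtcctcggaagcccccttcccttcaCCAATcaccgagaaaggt
Ppp1r3c, chr19:36736654-36736854, minus strand: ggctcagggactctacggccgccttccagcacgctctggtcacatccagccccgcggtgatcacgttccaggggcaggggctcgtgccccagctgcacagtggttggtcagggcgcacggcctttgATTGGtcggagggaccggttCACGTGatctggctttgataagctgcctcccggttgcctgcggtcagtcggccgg
The Gbe1 window holds none of the 5 motifs, the Gsk3b window holds CCAAT 3 times, and the Ppp1r3c window holds CACGTG 1 time and CCAAT 1 time. The Ppp1r3c window is 201 bases long and the other two are 250. Among the 32851 mouse promoters of the same source, taken as 250 bases before the start, 33.8% hold CCAAT, 32.7% GGGCGG, 14.0% AGGTCA, 6.02% CACGTG and 1.55% TGACGTCA.

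In FROZ, 3 members rose with DCA and 1 fell. Gbe1, Gys2 and Gsk3b were higher at 313 and 427 mg/kg-d, and Ppp1r3b was lower at both doses. Pygl, Ugp2, Ppp1r3c and Phka2 did not pass the test at any dose. Calls are from limma on all genes of the table with a Benjamini-Hochberg false discovery rate (FDR) under 0.05. At 427 mg/kg-d, 3 of 8 members were higher and 1 lower, against 22.7% and 7.33% of all genes (30.1% in either direction). At 313 mg/kg-d the same 3 were higher and the same 1 lower, against 20.5% and 6.15% of all genes (26.7% in either direction). No member was called at 198 mg/kg-d, where 1.56% of all genes were, and 1 member (Gsk3b) had an unadjusted limma p under 0.05. The median log2 fold change of the 8 members was 0.05 at 198, 0.06 at 313 and 0.21 at 427 mg/kg-d, beside 0.07, 0.11 and 0.10 over all genes.

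**Figure D1:**
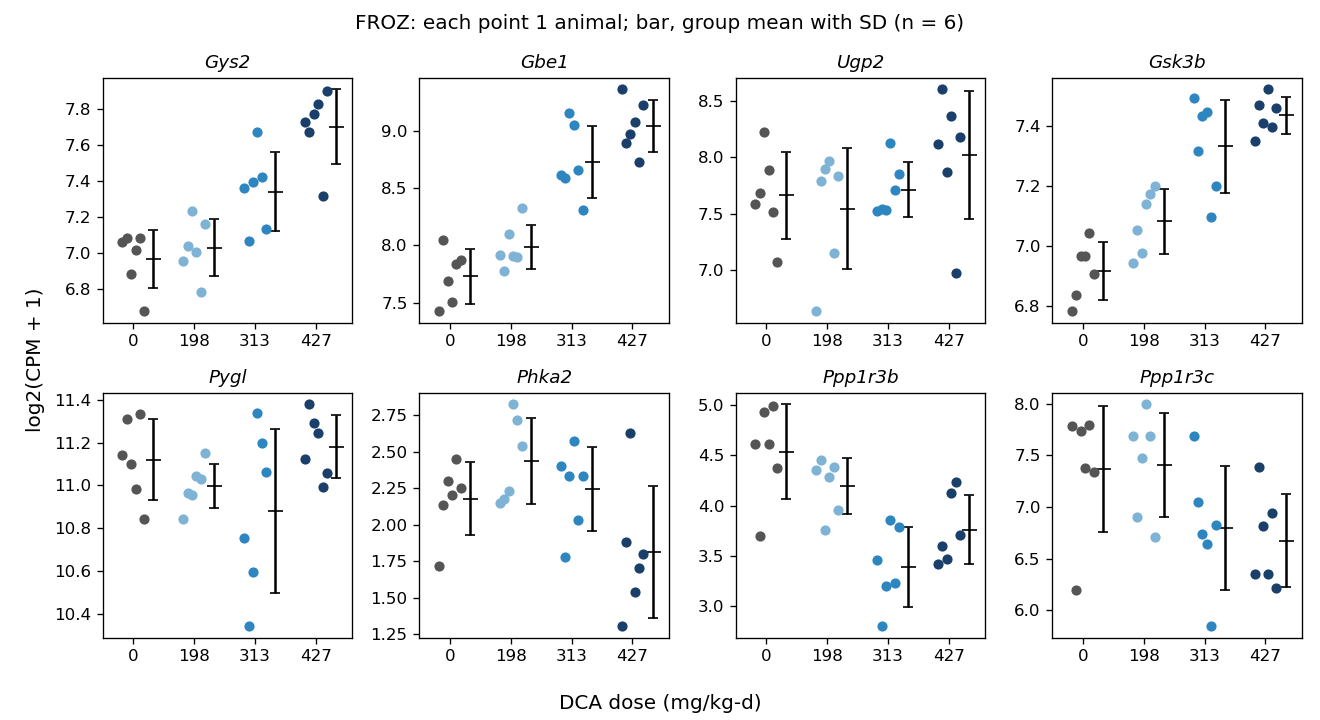
Level of the 8 members listed in FROZ, as log2(CPM + 1), by DCA dose in mg/kg-d (doses at equal spacing, each panel with its own vertical range that does not start at 0). Points are single animals and bars the group mean with SD (n = 6). All 6 animals at 427 mg/kg-d lie above every vehicle animal for Gys2, Gbe1 and Gsk3b.

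Gbe1, the branching enzyme, rose more than any other member at 427 mg/kg-d. Its level ran from 7.42 to 8.05 in vehicle mice (median 7.76), from 7.77 to 8.32 at 198 mg/kg-d (median 7.91), from 8.31 to 9.16 at 313 mg/kg-d (median 8.64) and from 8.73 to 9.36 at 427 mg/kg-d (median 9.03). Every mouse at 313 and 427 mg/kg-d was above every vehicle mouse, whereas the vehicle and 198 mg/kg-d groups overlapped. Against vehicle its log2 fold change was 1.32 at 427 mg/kg-d (SE 0.13, 2.49-fold, limma FDR 2.37e-08) and 1.00 at 313 mg/kg-d (SE 0.13, 2.00-fold, limma FDR 3.86e-06). It was 0.26 at 198 mg/kg-d (SE 0.13, limma FDR 0.327).

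Gys2, liver glycogen synthase, rose at the 2 higher doses. Vehicle values were 6.67 to 7.08 (median 7.04), and those at 198 mg/kg-d 6.78 to 7.23 (median 7.02). At 313 mg/kg-d they were 7.06 to 7.67 (median 7.38) and at 427 mg/kg-d 7.31 to 7.90 (median 7.75). Vehicle and 427 mg/kg-d did not overlap, and 5 of 6 mice at 313 mg/kg-d were above every vehicle mouse. The log2 fold change was 0.38 at 313 mg/kg-d (SE 0.11, 1.30-fold, limma FDR 0.00917) and 0.74 at 427 mg/kg-d (SE 0.11, 1.67-fold, limma FDR 5.01e-06). Median-ratio scaling of the libraries gave 0.24 at 313 mg/kg-d with a limma FDR of 0.12, so that call was lost, and 0.59 at 427 mg/kg-d with a limma FDR of 0.000131.

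Ugp2, which supplies UDP-glucose, did not pass the test. It ranged from 7.07 to 8.23 in vehicle mice (median 7.64) and from 6.97 to 8.60 at 427 mg/kg-d (median 8.15), with 5 of 6 mice above the vehicle median. Its log2 fold change at 427 mg/kg-d was 0.36 (SE 0.23, 95% confidence interval -0.12 to 0.83, limma FDR 0.26). Leaving out 1 mouse of the 427 mg/kg-d group raised it to 0.57 with a limma FDR of 0.038.

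Gsk3b encodes a kinase that inhibits the synthase, and it rose along with Gys2 and Gbe1. Its values spanned 6.78 to 7.04 in vehicle mice (median 6.94), 6.95 to 7.20 at 198 mg/kg-d (median 7.10), 7.10 to 7.49 at 313 mg/kg-d (median 7.38) and 7.35 to 7.52 at 427 mg/kg-d (median 7.44). Neither of the 2 higher dose groups overlapped the vehicle group, and 4 of 6 mice at 198 mg/kg-d were above every vehicle mouse. Its change was small but tightly spread, with log2 fold changes of 0.41 at 313 mg/kg-d (SE 0.07, 1.33-fold, limma FDR 0.000112) and 0.52 at 427 mg/kg-d (SE 0.07, 1.43-fold, limma FDR 3.66e-06). With 3 members apart from vehicle at 427 mg/kg-d and 2 at 313 mg/kg-d, 14.7% and 11.5% of all FROZ genes had groups that did not overlap.

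Breakdown genes showed no change that passed the test. Pygl, the phosphorylase, ran from 10.84 to 11.33 in vehicle mice (median 11.12), from 10.34 to 11.34 at 313 mg/kg-d (median 10.91) and from 10.99 to 11.38 at 427 mg/kg-d (median 11.18). The 313 mg/kg-d mice were the most spread, with 3 below every vehicle mouse and 1 above. The log2 fold change was -0.24 at 313 mg/kg-d (SE 0.13, limma FDR 0.185) and 0.06 at 427 mg/kg-d (SE 0.13, 95% confidence interval -0.21 to 0.33, limma FDR 0.764). Median-ratio scaling moved these to -0.38 (limma FDR 0.0426) and -0.08 (limma FDR 0.699).

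Phka2, the liver alpha subunit of phosphorylase kinase, rested on few reads. It had 20 to 44 reads in vehicle libraries and 13 to 48 at 427 mg/kg-d. On the log2 scale it spanned 1.72 to 2.45 in vehicle mice (median 2.23) and 1.30 to 2.63 at 427 mg/kg-d (median 1.76), with 5 of 6 mice below the vehicle median. The log2 fold change was -0.36 (SE 0.18, 95% confidence interval -0.74 to 0.01, limma FDR 0.139), and it was -0.53 with a limma FDR of 0.0182 without 1 mouse of the 427 mg/kg-d group.

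Ppp1r3b, the phosphatase targeting subunit known as hepatic GL, fell at the 2 higher doses. Its level ran from 3.69 to 4.99 in vehicle mice (median 4.61) and from 3.75 to 4.45 at 198 mg/kg-d (median 4.32). It was between 2.80 and 3.86 at 313 mg/kg-d (median 3.35) and between 3.42 and 4.24 at 427 mg/kg-d (median 3.65). All 6 mice of every treated group were below the vehicle median, and those at 313 and 427 mg/kg-d overlapped the vehicle range only through the lowest vehicle mouse, at 3.69, since the next vehicle mouse was at 4.37. The change in log2 was -1.14 at 313 mg/kg-d (SE 0.20, 0.452-fold, limma FDR 0.000114) and -0.78 at 427 mg/kg-d (SE 0.20, 0.584-fold, limma FDR 0.00397). The values rest on 95 to 302 reads per vehicle library and 44 to 98 at 313 mg/kg-d.

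Ppp1r3c encodes the related subunit named PTG, and it did not pass the test. Its vehicle values were 6.20 to 7.79 (median 7.56), with 1 mouse at 6.20 and the other 5 at 7.33 or above. Levels were 6.71 to 7.99 at 198 mg/kg-d (median 7.58), 5.84 to 7.68 at 313 mg/kg-d (median 6.78) and 6.22 to 7.38 at 427 mg/kg-d (median 6.58). At 427 mg/kg-d all 6 mice were below the vehicle median and the log2 fold change was -0.69 (SE 0.28, 0.618-fold, limma FDR 0.0581), which missed the threshold. Without the low vehicle mouse it was -0.93 with a limma FDR of 0.00676, and the change at 313 mg/kg-d went from -0.57 (limma FDR 0.129) to -0.81 (limma FDR 0.0206). The call at 427 mg/kg-d was also gained without 1 mouse of that group (-0.84, limma FDR 0.0262) and with median-ratio scaling (-0.84, limma FDR 0.0207). Array quality weights (limma FDR 0.0332), a filter at 10 CPM (0.0472) and a fit of only the 2 groups compared (0.0444) gave it too. So did leaving out mouse 73 or 77 of the 313 mg/kg-d group (limma FDR 0.0437 and 0.041). It was not gained with another offset or with a variance prior without trend.

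Fold changes above 2 with an FDR under 0.05, the study's definition of a differentially expressed gene, were reached by Gbe1 and Ppp1r3b at 313 mg/kg-d and by Gbe1 at 427 mg/kg-d. Of all FROZ genes, 2.31% and 3.5% met that definition. Gbe1 at 313 mg/kg-d sat at the limit, with a log2 fold change of 1.00, and was 0.86 with median-ratio scaling.

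Between neighbouring doses, 3 members passed the test for the step from 198 to 313 mg/kg-d. Gbe1 rose by 0.74 on the log2 scale (SE 0.13, limma FDR 0.00045) and Gsk3b by 0.25 (SE 0.07, limma FDR 0.0238), a call that Gsk3b lost with median-ratio scaling. Ppp1r3b was lower by this step, with a log2 difference of -0.81 (SE 0.20, limma FDR 0.00819). These 3 of 8 members compare with 11.7% of all genes called for that step. Gys2 had a log2 difference of 0.31 (SE 0.11, limma FDR 0.0509). From 313 to 427 mg/kg-d no member passed, 4 had an unadjusted limma p under 0.05, and 3.07% of all genes were called. The lowest FDR of these was that of Gys2, with a log2 difference of 0.36 (SE 0.11, limma FDR 0.0576). Ppp1r3b had a difference of 0.37 in the other direction to its change from vehicle (SE 0.20, limma FDR 0.344).

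A dose trend was tested with the Kruskal-Wallis and the two-sided Jonckheere statistic, each with 100000 permutations of the dose labels and FDR under 0.05 over all genes in both. Gbe1, Gsk3b and Gys2 had a rising trend and Ppp1r3b a falling one, 4 of 8 members beside 24.3% of all FROZ genes. The Jonckheere permutation p was 1e-05 for each of Gbe1, Gsk3b and Gys2, the smallest that the permutations can give (FDR 0.000225), and the permutation FDR of Ppp1r3b was 0.00574. Ppp1r3c met the Jonckheere threshold (permutation FDR 0.0397) but not the Kruskal-Wallis threshold (permutation FDR 0.15).

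Differences between members within a library do not depend on the scaling of that library beyond the offset of 1 CPM. The log2 difference Gys2 minus Pygl was -4.15 ± 0.11 (SD, n = 6) in vehicle mice, -3.97 ± 0.18 at 198, -3.54 ± 0.29 at 313 and -3.48 ± 0.20 at 427 mg/kg-d. All 6 mice at 313 and all 6 at 427 mg/kg-d were above every vehicle mouse in it. Gys2 minus Ppp1r3b went from 2.43 ± 0.50 (SD, n = 6) in vehicle mice to 3.95 ± 0.34 at 313 and 3.94 ± 0.48 at 427 mg/kg-d, with 5 of 6 mice of each of these groups above every vehicle mouse. These are descriptions of the same values as above and were not tested.

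**Figure D2:**
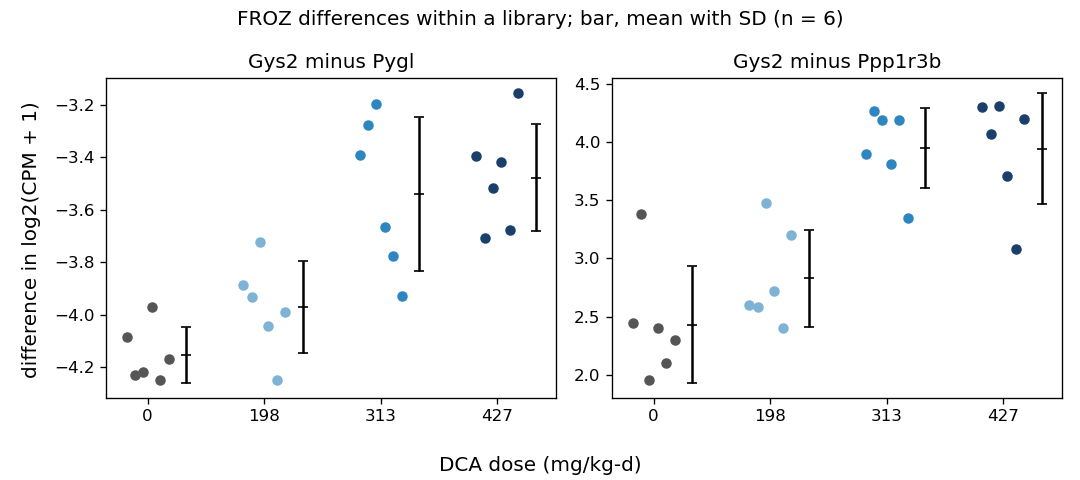
Difference between 2 members in the same FROZ library, in units of log2(CPM + 1), by DCA dose in mg/kg-d; the vertical axes do not start at 0. Points are animals and bars the mean with SD (n = 6). Gys2 minus Pygl lies above the highest vehicle mouse in every animal of the 2 higher doses.

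Among FROZ genes, those whose pattern over the 24 libraries was most like that of Gbe1 were Kmt5a (Pearson r 0.958), Me1 (r 0.956) and Hif1a (r 0.951). Those most like Gsk3b were 4930402H24Rik (r 0.952), Ndfip2 (r 0.940) and Uqcc1 (r 0.935). The points share the dose groups, and with the dose means removed the same 6 correlations were 0.705 to 0.775 over 24 libraries.

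In FFPE, no member passed the test at any dose. Among all FFPE genes 0.0599% were called at 198, 1.08% at 313 and 2.41% at 427 mg/kg-d. An unadjusted limma p under 0.05 was reached by no member at 198 mg/kg-d, by Ppp1r3b and Ppp1r3c at 313 mg/kg-d, and by Gys2 and Ppp1r3c at 427 mg/kg-d. Over the 7 members the median log2 fold change was -0.35 at 198, -0.03 at 313 and 0.30 at 427 mg/kg-d. Over all FFPE genes it was -0.19, -0.12 and 0.18. No member's 427 mg/kg-d group lay wholly apart from vehicle, where 4.48% of FFPE genes did.

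**Figure D3:**
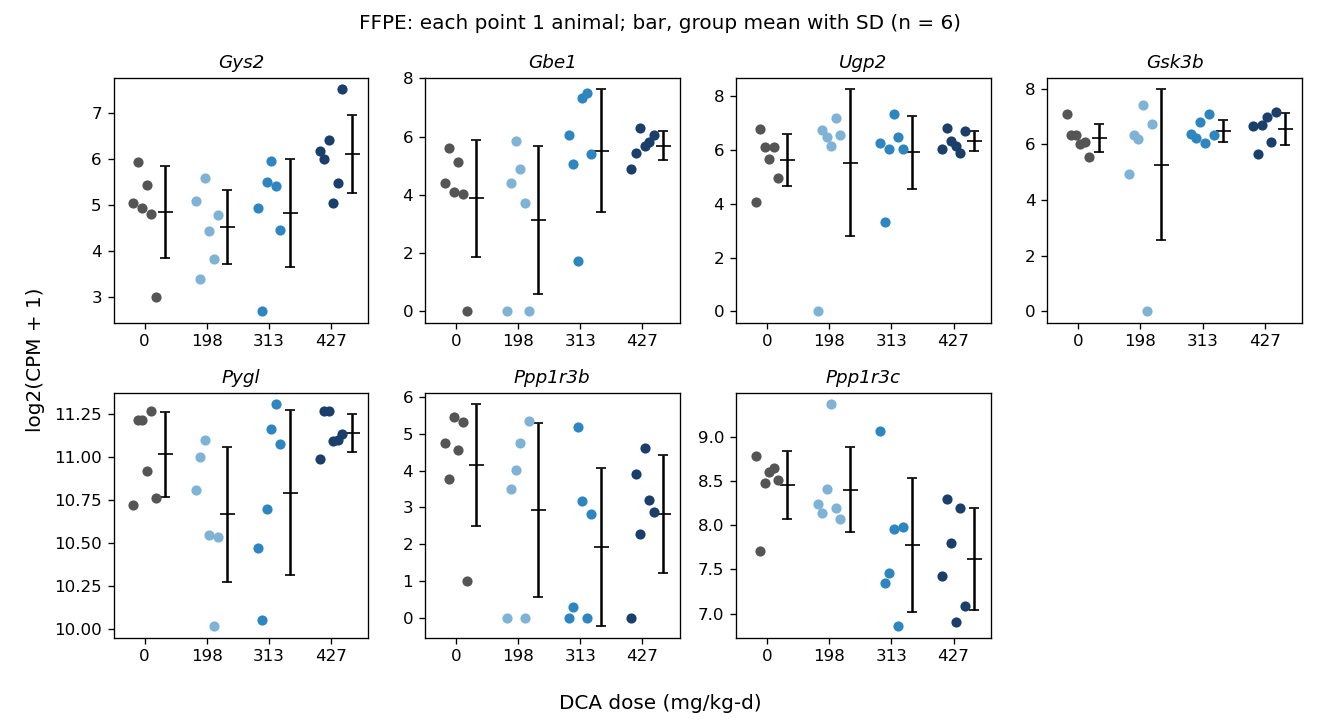
Level of the 7 members listed in FFPE, as log2(CPM + 1), by DCA dose in mg/kg-d (doses at equal spacing, each panel with its own vertical range). Points are single animals and bars the group mean with SD (n = 6). Of the 168 values, 10 are listed at 0. The spread within a dose is wider than in FROZ at every dose for Gys2, Gbe1, Ppp1r3b and Gsk3b. For Ugp2 and Pygl it is wider at every dose but 427 mg/kg-d.

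Gys2 ran from 2.99 to 5.92 in vehicle FFPE libraries (median 4.98) and from 5.04 to 7.51 at 427 mg/kg-d (median 6.09). All 6 mice at 427 mg/kg-d were above the vehicle median and 4 were above every vehicle mouse. The log2 fold change was 1.25 (SE 0.60, 95% confidence interval 0.02 to 2.48, limma FDR 0.556). With 1 library left out it ran from 0.88 to 1.47. The vehicle library at 2.99, of mouse 8, is also the vehicle library that listed Gbe1 at 0.

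Gbe1 was listed at 0 in 1 vehicle library, and the other 5 reached 4.04 to 5.61. At 427 mg/kg-d it spanned 4.88 to 6.29 (median 5.74), with 4 mice above every vehicle mouse. The log2 fold change was 1.80 (SE 1.02, 95% confidence interval -0.28 to 3.89, limma FDR 0.728), so that the interval holds both no change and the FROZ value of 1.32. Without the vehicle library at 0 it was 1.03.

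Ppp1r3c had a standard error in FFPE close to that in FROZ. Vehicle values were 7.71 to 8.78 (median 8.55), those at 313 mg/kg-d 6.86 to 9.07 (median 7.71) and those at 427 mg/kg-d 6.90 to 8.29 (median 7.61). At 427 mg/kg-d all 6 mice were below the vehicle median. Its log2 fold change there was -0.84 (SE 0.30, limma FDR 0.226), and fits with array quality weights or with only the 2 groups compared called it, with limma FDR values of 0.00368 and 0.0342. Its Jonckheere permutation FDR was 0.0699, and no FFPE member had a dose trend, beside 2.01% of FFPE genes.

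Ppp1r3b was listed at 0 in 5 FFPE libraries, 2 at 198, 2 at 313 and 1 at 427 mg/kg-d. Its log2 fold change was -2.23 at 313 (SE 1.08, limma FDR 0.422) and -1.32 at 427 mg/kg-d (SE 1.08, limma FDR 0.967). With 1 library left out it ran from -2.88 to -1.85 at 313 and from -1.95 to -0.76 at 427 mg/kg-d. Ugp2 had 0.70 (SE 0.80), Gsk3b 0.30 (SE 0.71) and Pygl 0.13 (SE 0.19) at 427 mg/kg-d, none of which passed. Gsk3b was listed at 0 in 1 FFPE library at 198 mg/kg-d, whereas the other 5 of that group held 4.93 or above. A library at 0 can hide up to 3 reads, and such a limit covers counting error only.

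Whether the response to DCA differed between preservations was tested by pairing the libraries of a mouse, with FROZ subtracted from FFPE before the doses were compared. Of the 7 members listed in both tables, none differed at 198, 313 or 427 mg/kg-d, beside 0.0303%, 0% and 0.0303% of the 6591 genes compared. No member had an unadjusted limma p under 0.05 there. Intervals were wide. At 427 mg/kg-d the difference in response of Gbe1 was 0.49 (95% confidence interval -1.85 to 2.83) and that of Ppp1r3c -0.14 (95% confidence interval -0.65 to 0.37).

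**Figure D4:**
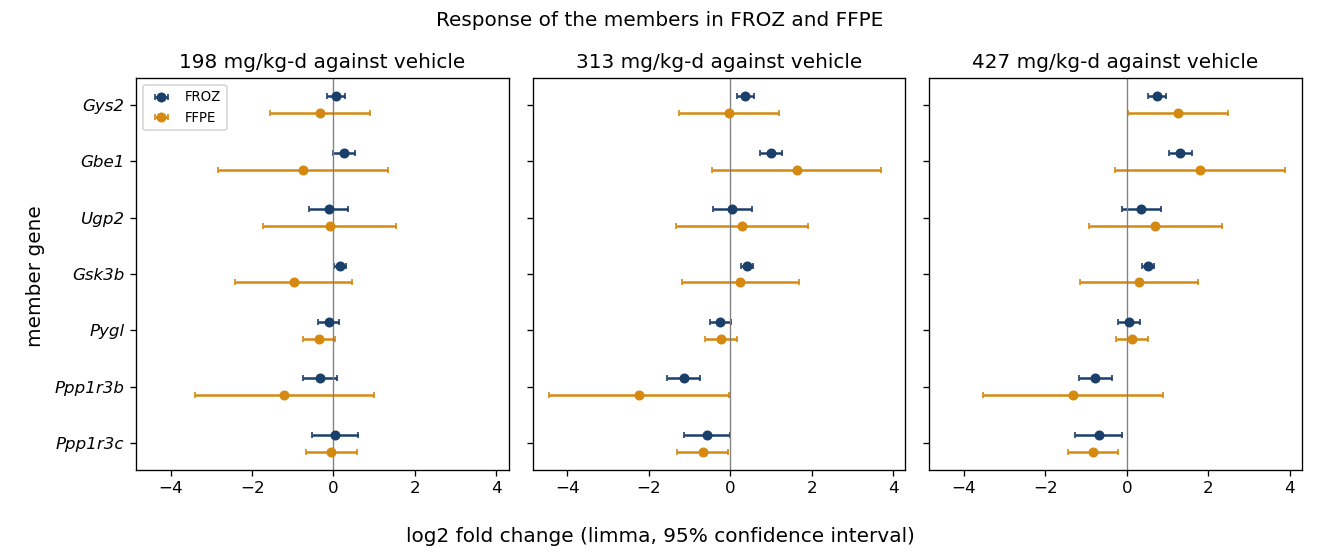
Log2 fold change of 7 members against vehicle at each dose, from limma, with 95% confidence intervals, in FROZ (blue) and FFPE (orange). FROZ intervals lie away from 0 for Gbe1, Gys2, Gsk3b and Ppp1r3b at the 2 higher doses, as do those of Ppp1r3c, which missed the FDR threshold, and FFPE intervals are several times wider for all members but Pygl and Ppp1r3c.

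Mice that were high or low for their dose group in Ppp1r3c or Gys2 in FROZ tended to be so in FFPE. The SD of these deviations was 0.51 in FROZ and 0.53 in FFPE for Ppp1r3c. For Gys2 it was 0.18 in FROZ and 0.90 in FFPE. Deviations from the dose means were correlated between FROZ and FFPE over 24 animals. Ppp1r3c had a Pearson r of 0.817 (Spearman rho 0.785, and r 0.762 without the 2 mice farthest from the median), and 0.288% of the 6591 genes had a higher r. Gys2 had an r of 0.721 (rho 0.697, and 0.685 without such mice), exceeded by 0.652% of genes. Pygl and Ugp2 had r of 0.622 and 0.551, which fell to 0.422 and 0.319 without the 2 farthest mice. Gbe1 had an r of -0.29, Gsk3b -0.168 and Ppp1r3b 0.231, beside a median of 0.0869 over all genes. Without the 2 farthest mice, r was 0.017 for Gbe1, -0.144 for Gsk3b and 0.18 for Ppp1r3b. The vehicle mouse with the lowest Ppp1r3c in FROZ (6.20) was also the lowest vehicle mouse in FFPE (7.71). The 2 libraries of a mouse share the animal, and no p is given for these correlations.

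Of 24 other genes of glycogen metabolism, 17 were listed in FROZ. At 427 mg/kg-d, 5 of them were higher and none lower, a share of the 17 to be read beside the 22.7% of all FROZ genes that were higher. Pgm2, a phosphoglucomutase, had a log2 fold change of 0.35 (SE 0.11, limma FDR 0.0119). Ppp1ca, a catalytic subunit of protein phosphatase 1, had 0.33 (SE 0.09, limma FDR 0.00421). Gsk3a, the paralog of Gsk3b, had 0.37 (SE 0.14, limma FDR 0.047), and Nhlrc1, the ubiquitin ligase malin, 0.42 (SE 0.14, limma FDR 0.0272). At 313 mg/kg-d, 3 of the 17 were higher (Gsk3a, Nhlrc1 and Ppp1ca) and 1 lower (Phkg2), beside 20.5% and 6.15% of all FROZ genes. At 198 mg/kg-d none was called, beside 1.56% of all genes. The calls at 427 mg/kg-d depended on the scaling. With median-ratio scaling none of the 5 was called, and 2 phosphorylase kinase subunits, Phka1 and Phkb, were called lower. Leaving out 1 mouse gave 3 calls for mouse 97, 100 or 102 of the 427 mg/kg-d group or vehicle mouse 4 or 8, and 2 calls for vehicle mouse 7. In FFPE, 10 of the 24 were listed and none was called at any dose.

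Glucose enters and leaves the hepatocyte through transporters and is trapped or freed by kinases and phosphatases. Of 12 such genes, all listed in FROZ, 5 were higher at 427 mg/kg-d and none lower, where 22.7% of all genes were higher. At 313 mg/kg-d 5 were higher and 1 lower, beside 20.5% and 6.15% of all genes. At 198 mg/kg-d none was called, beside 1.56% of all genes. Slc2a2, the GLUT2 transporter, had a log2 fold change of 0.53 (SE 0.11, limma FDR 0.000485). Gpi1, glucose 6-phosphate isomerase, had 0.51 (SE 0.14, limma FDR 0.00585). The pentose phosphate enzymes G6pdx and Pgd had 0.91 (SE 0.21, limma FDR 0.00126) and 0.64 (SE 0.21, limma FDR 0.0223). Of 16 upstream kinases and receptors, 15 were listed in FROZ and 5 were higher at 427 mg/kg-d, beside the same 22.7% of all genes. At 313 mg/kg-d 5 were higher, and at 198 mg/kg-d 1 was, Prkaa2 (log2 fold change 0.41, limma FDR 0.0415), with none lower at any dose. Of all genes, 20.5% were higher at 313 mg/kg-d, and 1.56% were called in either direction at 198 mg/kg-d. Among the 5 kinases and receptors higher at 427 mg/kg-d, 3 encode subunits of AMP-activated protein kinase. These were Prkaa2 with a log2 fold change of 0.81 (SE 0.10), Prkab1 with 0.43 (SE 0.10) and Prkag1 with 0.37 (SE 0.07). The other two were Akt2 with 0.32 (SE 0.11) and Prkar1a with 0.26 (SE 0.09). Their limma FDR values were 1.29e-06 for Prkaa2, 0.0016 for Prkab1, 8.38e-05 for Prkag1, 0.0263 for Akt2 and 0.0212 for Prkar1a. With median-ratio scaling, or without mouse 102 of the 427 mg/kg-d group, Pgd, Akt2 and Prkar1a were not called. The first of these also called Prkar2a, a regulatory subunit of protein kinase A, lower. In FFPE, 7 of the glucose genes and 13 of the kinases and receptors were listed, and none was called at any dose.

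Over all FROZ genes, scaling set the balance of calls. As deposited, 2565 genes were higher and 826 lower at 427 mg/kg-d (75.6% higher). With median-ratio scaling 1423 were higher and 1424 lower (50% higher). The median log2 fold change over all genes moved from 0.10 to -0.01. Relative to that median the members stood at 1.21 for Gbe1, 0.63 for Gys2, 0.41 for Gsk3b and -0.88 for Ppp1r3b at 427 mg/kg-d, each on the log2 scale.

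Markers of other liver cells were read beside these results. Of all FROZ genes, 7.33% were lower and 22.7% higher at 427 mg/kg-d, 6.15% were lower at 313 mg/kg-d, and 1.56% were called at 198 mg/kg-d. Of 7 listed Kupffer cell or macrophage markers, 4 were lower at 427 mg/kg-d in FROZ (Adgre1, Cd5l, C1qa and Csf1r), none at 313 or 198 mg/kg-d. Their summed level was 91.3 to 139 CPM in vehicle libraries, 73.5 to 164 CPM at 313 mg/kg-d and 74.7 to 97.1 CPM at 427 mg/kg-d. The summed level of the 8 hepatocyte markers was 30986 to 40361 CPM in vehicle libraries, 26244 to 32199 CPM at 313 mg/kg-d and 27950 to 32787 CPM at 427 mg/kg-d, where 1 of them was called higher and 1 lower, and 2 were lower at 313 mg/kg-d. In FFPE the sum of the 7 listed hepatocyte markers was 41743 to 57933 CPM in vehicle libraries and 30836 to 35462 CPM at 427 mg/kg-d, without overlap. There 1 of 7 was called lower, beside 2.41% of all FFPE genes called in either direction. Of the endothelial markers 1 of 8 was lower at 427 mg/kg-d in FROZ, and of the stellate cell or fibroblast markers 1 of 7, beside the 7.33% of all genes. No listed marker was at 0 in every FROZ library of a group. Their part in the changes of the members was not tested.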

How the data were processed

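TempO-Seq was run on paired FROZ and FFPE liver of 24 mice. The deposited values are log2(CPM + 1) per gene, which the authors made by aligning trimmed reads to mm10 with STAR 2.6 in Partek (names and version per the submitters' processing notes), assigning them to RefSeq transcripts by expectation maximization, dropping genes of low geometric mean, and scaling each library to 1000000. FROZ and FFPE were scaled separately, so levels were tested within a table. Depth was recovered from the step between low values, of which 77.2% to 97.6% per library were whole reads within 0.1 read. Since expectation maximization leaves fractional reads, no count test was run. Dose groups came from the labels, and replicates are separate mice.

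Every gene of a table was fitted with limma 3.58.1 (R 4.3.3, variance prior following the mean) over its 24 libraries, with Benjamini-Hochberg adjustment over all genes. Dose trends used 100000 permutations. FROZ and FFPE libraries of a mouse carry 1 animal number. Deviations from the dose means had a median r of 0.128 within a mouse and -0.0232 between different mice of the same dose, over 4815 genes. Compared only within its dose group of 6, the own FFPE library correlated best for 21 of 24 mice. Members and lists were chosen with earlier results of these data known. The genes named are the members, at most 6 called genes per related list, and the 3 genes most like each of the 2 members of lowest FDR. Phkg2, Phka1, Phkb, Prkar2a and the correlation between FROZ and FFPE were chosen after their values were seen. Alternatives were another offset, a filter at 10 CPM, median-ratio scaling, array quality weights, a variance prior without trend, fits of only the groups compared, and leaving out each mouse. Leaving out FFPE libraries with over 16% of genes at 0 was added after seeing the data. Some genes of the related lists are counted but not reported here by name.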

Additional observations from a re-analysis of the deposited data

Results flagged for a closer look

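In 7 of the 60 groups of 6 mice, 1 mouse stood apart from the other 5 in a member's log2(CPM + 1) by Dixon's test at the 95% level, and chance flags about 1 in 20 groups. Of the 32 FROZ groups 1 was flagged, and of the 28 FFPE groups 6.

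Ppp1r3c was flagged in the same vehicle mouse in both preservations, with 6.1957 in FROZ (the next vehicle mouse was at 7.33) and 7.7072 in FFPE (next 8.48). Without that mouse the FROZ change of Ppp1r3c passed the threshold at 313 and at 427 mg/kg-d, as given above. Ppp1r3c was also flagged at the upper end in FFPE at 198 mg/kg-d, where 1 mouse had 9.367 and the next 8.41, and that library was among the 3 with over 16% of genes at 0.

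The other flagged values were low FFPE values. Gbe1 was listed at 0 in 1 vehicle library (next 4.04). Ugp2 was listed at 0 in 1 library at 198 mg/kg-d (next 6.15) and had 3.3331 in 1 library at 313 mg/kg-d (next 6.02). Gsk3b was listed at 0 in 1 library at 198 mg/kg-d (next 4.93).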

How the results depend on the processing

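Gbe1, Gsk3b, Gys2 and Ppp1r3b kept their direction and call at 313 and 427 mg/kg-d in FROZ under each alternative run, except Gys2 at 313 mg/kg-d with median-ratio scaling. Counts of called FROZ members were 4 to 5 at each of these doses when 1 mouse was left out. Members with a dose trend did not change in number with median-ratio scaling or the filter at 10 CPM. The trend was not tested with a mouse left out.

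Counts that moved by more than 1.5 times were these. With array quality weights, and with only the 2 groups compared, 1 FFPE member (Ppp1r3c) was called at 427 mg/kg-d. Between 313 and 427 mg/kg-d in FROZ, 1 member (Gys2) was called with the filter at 10 CPM, and 0 to 1 when 1 mouse was left out (mouse 53, 76 or 101 or vehicle mouse 8). Other glycogen genes gave 1 call at 198 mg/kg-d (Gaa, lower) and 2 at 427 mg/kg-d with median-ratio scaling, and 1 at 313 and 3 at 427 mg/kg-d with the filter, which left 10 genes to test. With 1 mouse left out they gave 2 to 6 calls at 313 mg/kg-d (2 without mouse 75, 6 without vehicle mouse 5) and 2 to 5 at 427 mg/kg-d. The 2 lists of glucose genes and kinases gave 6 to 11 (6 without mouse 102). Across all genes, median-ratio scaling moved the share of higher FROZ calls from 77% to 48.6% at 313 mg/kg-d and from 71.6% to 23.4% at 198 mg/kg-d. The causes were not tested.

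Log2 fold changes that turned sign were all of members not called. With median-ratio scaling these were FROZ Gys2 (-0.027) and Ppp1r3c (-0.052) at 198, Ugp2 (-0.088) and Phka2 (-0.047) at 313, and Pygl (-0.083) at 427 mg/kg-d. With array quality weights they were Ppp1r3c in FROZ (-0.017) and Gbe1 (0.30) and Ugp2 (0.48) in FFPE, all at 198 mg/kg-d. An offset of 10 CPM turned FFPE Ugp2 at 198 mg/kg-d (0.28) and Gys2 at 313 mg/kg-d (0.0012), and FFPE Ugp2 at 198 mg/kg-d was 1.13 without the libraries with over 16% of genes at 0. Leaving out 1 mouse gave, in FROZ, -0.23 to 0.066 for Ugp2 and -0.20 to 0.18 for Ppp1r3c at 198, and -0.065 to 0.17 for Ugp2 and -0.027 to 0.16 for Phka2 at 313 mg/kg-d. In FFPE it gave -0.43 to 1.01 for Ugp2, -0.24 to 0.017 for Ppp1r3c and -1.40 to 0.079 for Gsk3b at 198, and -0.40 to 0.40 for Gys2 and -0.015 to 0.81 for Ugp2 at 313 mg/kg-d.

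Without the replicate block, which pairs the 2 libraries of a mouse, 0 members differed between FFPE and FROZ at each dose, as with it. In FFPE, 10 of 168 member values were listed at 0, in libraries of 1.83 to 5.37 M reads on listed genes, and the part of depth in these was not tested.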
